A study of Mus musculus with 4 samples.

Results

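The 9 genes described here serve the uptake of filtered protein and phosphate in the kidney: *Lrp2*, *Cubn*, *Amn*, *Dab2*, *Lrpap1*, *Slc34a1*, *Slc34a3*, *Slc20a2* and *Clcn5*. They were chosen by their symbols for these roles, and 9 of the 31053 genes counted carry those symbols. Megalin, made from *Lrp2*, and cubilin, made from *Cubn*, are large receptors on the brush border of the proximal tubule that bind filtered proteins and vitamin carriers and bring them into the cell through coated pits. The same membrane holds the sodium-phosphate cotransporters that reclaim phosphate from the filtrate, and endocytosis withdraws them when parathyroid hormone or FGF23 rises. The tubule runs from the convoluted segments S1 and S2 to the straight segment S3, and both kinds of uptake are known to be heaviest near its start.

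Nuclei came from the kidneys of 4 male mice at 12 weeks of age, and each mouse gave 1 library of single-nucleus RNA-seq. A pair of mice were *Hoxb7Cre+;Tfap2a fl/fl* (called cKO here), and the other pair were Cre-negative littermates that carry the same floxed alleles and served as controls. In *Tfap2a* the exons between the loxP sites are 5 and 6, and *Hoxb7Cre* acts in the ureteric lineage that forms the collecting duct and in epithelia of the lower urinary tract, not in the proximal tubule. Each kidney gave a middle slice whose cortex was trimmed, to enrich for the medulla, before nuclei were isolated. The counts thus cannot be taken to sample the whole proximal tubule evenly. Values for the 4 mice are given throughout in the order control mouse 1, control mouse 2, cKO mouse 1, cKO mouse 2, and their totals were 42138345, 24998797, 44964099 and 22179410 UMIs. A UMI marks 1 captured RNA molecule, and 7737, 5430, 7997 and 6177 nuclei passed the filters. Between 7 and 18 cell barcodes were shared by any pair of libraries.

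Levels are given in CPM, the UMIs of a gene summed over all nuclei of a class in 1 mouse, divided by the UMIs of all genes there and put on the usual CPM scale. Proximal tubule nuclei were found in 5 clusters, each of which held at least 4 of 9 proximal tubule markers, and numbered 4040, 1939, 4373 and 3343. Clusters were named S1-like, S2-like and S3-like from published segment markers, none of which is among the 9 genes. S2-like nuclei carried much of the S3 markers *Slco1a6* and *Slc7a13* as well, with a mean log2 ratio of S2-like to S3-like levels of 0.15 for *Slco1a6* and -0.57 for *Slc7a13*. Other S3 markers were higher in S3-like nuclei, *Cyp7b1* with a ratio of -6.77 and *Slc22a19* with -3.60. The ratio was smaller for *Atp11a* (-1.09), *Slc16a9* (-0.97) and *Slc5a8* (-0.72).

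The libraries were not alike, which bears on every value below. Control mouse 2 gave the fewest proximal tubule nuclei, and its S3-like share of them was 35.4%, beside 21.5%, 17.8% and 23.3% in control mouse 1 and cKO mice 1 and 2. RNA from broken cells that is captured with intact nuclei, called free RNA, cannot be estimated in proximal tubule nuclei from their own markers. Its share of UMIs there was taken from thick ascending limb and distal convoluted tubule nuclei of the same mouse, where it was 20.4%, 10.1%, 24.8% and 7.19%. It was thus higher in mouse 1 of each genotype. The median mitochondrial share of UMIs over all nuclei kept was 1.66, 0.67, 1.05 and 0.42%. The sum of 6 tubule injury markers was 166, 98.6, 162 and 117 CPM in proximal tubule nuclei, most of it *Spp1*, while *Krt20* and *Sox9* had at most 1 UMI in a mouse (these 3 are singled out after their values were seen). Their part in the values of the 9 genes was not tested.

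*Tfap2a* had 3, 1, 2 and 2 UMIs in proximal tubule nuclei. In principal cells of the collecting duct it had 80, 188, 66 and 79 UMIs, which is 57.5, 97.8, 64.3 and 106 CPM. In epithelium of the pelvis it had 10, 11, 0 and 0 UMIs, none of them in cKO mice. The libraries are of 3′ chemistry, and whether these tags lie in the deleted exons was not examined. The counts are thus not used to check the deletion.

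Along the proximal tubule the 9 genes fell into unlike patterns. Segments come from clustering of the same nuclei, so differences between them are described without a test. Since the 9 genes were left out of the genes used for clustering, none of them shaped the segments directly.

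Of the receptors, *Lrp2* was high in each segment. It stood at 2162, 3030.0, 2065 and 2107 CPM in S1-like nuclei, at 2189, 3076, 2122 and 2208 CPM in S2-like nuclei and at 1578, 1940.0, 1758 and 1721 CPM in S3-like nuclei. S1-like and S2-like values overlapped, and the S3-like values lay below both in all 4 mice, with a mean log2 ratio of S1-like to S3-like levels of 0.40 ± 0.18 (SD, n = 4 mice). Ratios here and below were taken per mouse with 10 CPM added to both levels.

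*Cubn*, whose product binds intrinsic factor-vitamin B12 and albumin, did not share this slope. Its S3-like values of 888, 904, 762 and 951 CPM were above the S2-like values of 748, 697, 564 and 743 CPM without overlap. The S1-like values of 804, 681, 695 and 838 CPM overlapped with both, though they were below the S3-like value of the same mouse in 4 of 4 mice (log2 ratio -0.22 ± 0.13, SD, n = 4).

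*Amn* makes amnionless, the membrane partner that carries cubilin to the cell surface. It stood at 127, 94.2, 137 and 102 CPM in S1-like nuclei, beside 90.0, 70.0, 90.6 and 65.9 CPM in S2-like nuclei and 88.9, 55.4, 84.8 and 68.3 CPM in S3-like nuclei. S1-like nuclei were highest in every mouse and the other segments overlapped. The ratio of S1-like to S3-like levels was 0.57 ± 0.10 on the log2 scale. It was opposite in sign to that of *Cubn*, whose S1-like and S3-like ranges overlapped.

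The adaptor and the chaperone also parted. *Dab2* makes disabled-2, which links the tail of megalin to clathrin. It reached 4483, 5555, 4084 and 4839 CPM in S1-like nuclei and 3266, 3563, 2808 and 3176 CPM in S2-like nuclei, and then dropped to 416, 498, 472 and 412 CPM in S3-like nuclei. No ranges overlapped, and the mean log2 ratio of S1-like to S3-like levels was 3.37 ± 0.19, a fold of 10.3. *Lrp2* differed between the same nuclei by a fold of 1.32, so receptor and adaptor transcripts did not decline together.

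*Lrpap1* makes RAP, the chaperone that keeps megalin from binding its ligands in the endoplasmic reticulum. Its values of 243, 164, 276 and 159 CPM in S1-like nuclei were below the 310, 212, 336 and 242 CPM in S3-like nuclei of the same mouse in 4 of 4 mice, with a log2 ratio of -0.39 ± 0.14. The ranges overlapped because mouse 1 of each genotype was higher than mouse 2 in every segment. *Amn* had the same order in S1-like, S2-like and S3-like nuclei. These are the mice with more free RNA, and in free RNA the levels of *Lrpap1* and *Amn* were 1.56 and 1.48 times those in proximal tubule nuclei (mean of 4 mice), while that of *Dab2* was 0.262 times. The part of free RNA in this order was not tested.

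*Clcn5* makes ClC-5, the chloride-proton exchanger of endosomes whose loss in people causes Dent disease. It declined in steps, from 119, 146, 130 and 134 CPM in S1-like nuclei through 81.3, 80.7, 90.8 and 92.9 CPM in S2-like nuclei to 55.6, 60.1, 60.0 and 59.1 CPM in S3-like nuclei. No ranges overlapped and the log2 ratio of S1-like to S3-like levels was 1.05 ± 0.08, with the smallest spread between mice of the 9 genes.

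Among the phosphate transporters, *Slc34a1* makes NaPi-IIa, the main brush border cotransporter of the mouse. It stood at 4997, 4226, 5637 and 5478 CPM in S1-like nuclei, at 3424, 3241, 3993 and 3816 CPM in S2-like nuclei and at 238, 108, 378 and 133 CPM in S3-like nuclei. The ratio of S1-like to S3-like levels was the largest of the 9 genes, at 4.66 ± 0.67 on the log2 scale, and depends on how much of the S3-like level is free RNA. Its large spread came with the S3-like values, which were higher in mouse 1 of each genotype.

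Those S3-like levels were no higher than in tubules that are not known to make this transporter. The thick ascending limb had 325, 130, 506 and 108 CPM of *Slc34a1*, and the distal convoluted tubule had 310, 109, 468 and 87.9 CPM. The S3-like level was above that of either class in 1 of 4 mice, cKO mouse 2, by the 95% exact Poisson interval of its count. Of the 15 classes of nuclei compared, S3-like nuclei had the lowest mean, 214 CPM, within the spread of the classes next above. *Slc34a1* transcripts of S3-like nuclei themselves were thus not detectable beyond the level in those classes, save in that mouse.

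*Slc34a3* makes NaPi-IIc, a second brush border cotransporter. Its levels were 124, 80.8, 122 and 105 CPM in S1-like nuclei, but 9.31, 4.29, 5.69 and 2.75 CPM in S2-like nuclei and 2.94, 2.19, 6.11 and 3.67 CPM in S3-like nuclei. The last of these rest on 9, 6, 16 and 10 UMIs. Thick ascending limb nuclei held 5.90, 2.31, 7.34 and 2.09 CPM, and the lower end of the 95% exact Poisson interval was above that level in 1 of 4 mice for S2-like nuclei and in 0 of 4 for S3-like nuclei. These thick ascending limb levels rest on 16, 7, 16 and 6 UMIs. Distal convoluted tubule nuclei held 7, 0, 1 and 0 UMIs. By the same interval S2-like and S3-like nuclei were each above that level in 3 of 4 mice, but it rests on too few UMIs for such a comparison.

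In S3-like nuclei the type IIc transcript was thus near the level of the thick ascending limb. In the S2-like cluster nearest to S1 it stood at 21.9, 9.25, 7.64 and 5.51 CPM, higher than the thick ascending limb value of the same mouse by the CPM alone, though little so in cKO mouse 1, and the other S2-like cluster had a mean of 2.96 CPM. The type IIa transcript remained at a mean of 3619 CPM in S2-like nuclei. In shares of nuclei, 19.7 to 25.2% of S1-like nuclei held a *Slc34a3* UMI in the 4 mice, beside 1.06 to 2.74% of S2-like nuclei and 0.444 to 1.47% of thick ascending limb nuclei. Median depths were 2482.5 to 2876 UMIs in S1-like nuclei and 1862.5 to 2014 UMIs in thick ascending limb nuclei. With every nucleus thinned to 1000 UMIs the shares were 8.46 to 12.1% in S1-like, 0.212 to 0.812% in S2-like and 0.279 to 0.753% in thick ascending limb nuclei.

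*Slc20a2* makes PiT-2, a sodium-phosphate cotransporter of another family. Its values of 169, 191, 168 and 166 CPM in S1-like nuclei overlapped with 142, 188, 155 and 161 CPM in S2-like nuclei and 139, 217, 156 and 194 CPM in S3-like nuclei. S1-like nuclei were higher in 2 of 4 mice and the mean log2 ratio to S3-like nuclei was -0.01 ± 0.23.

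**Figure D1:**
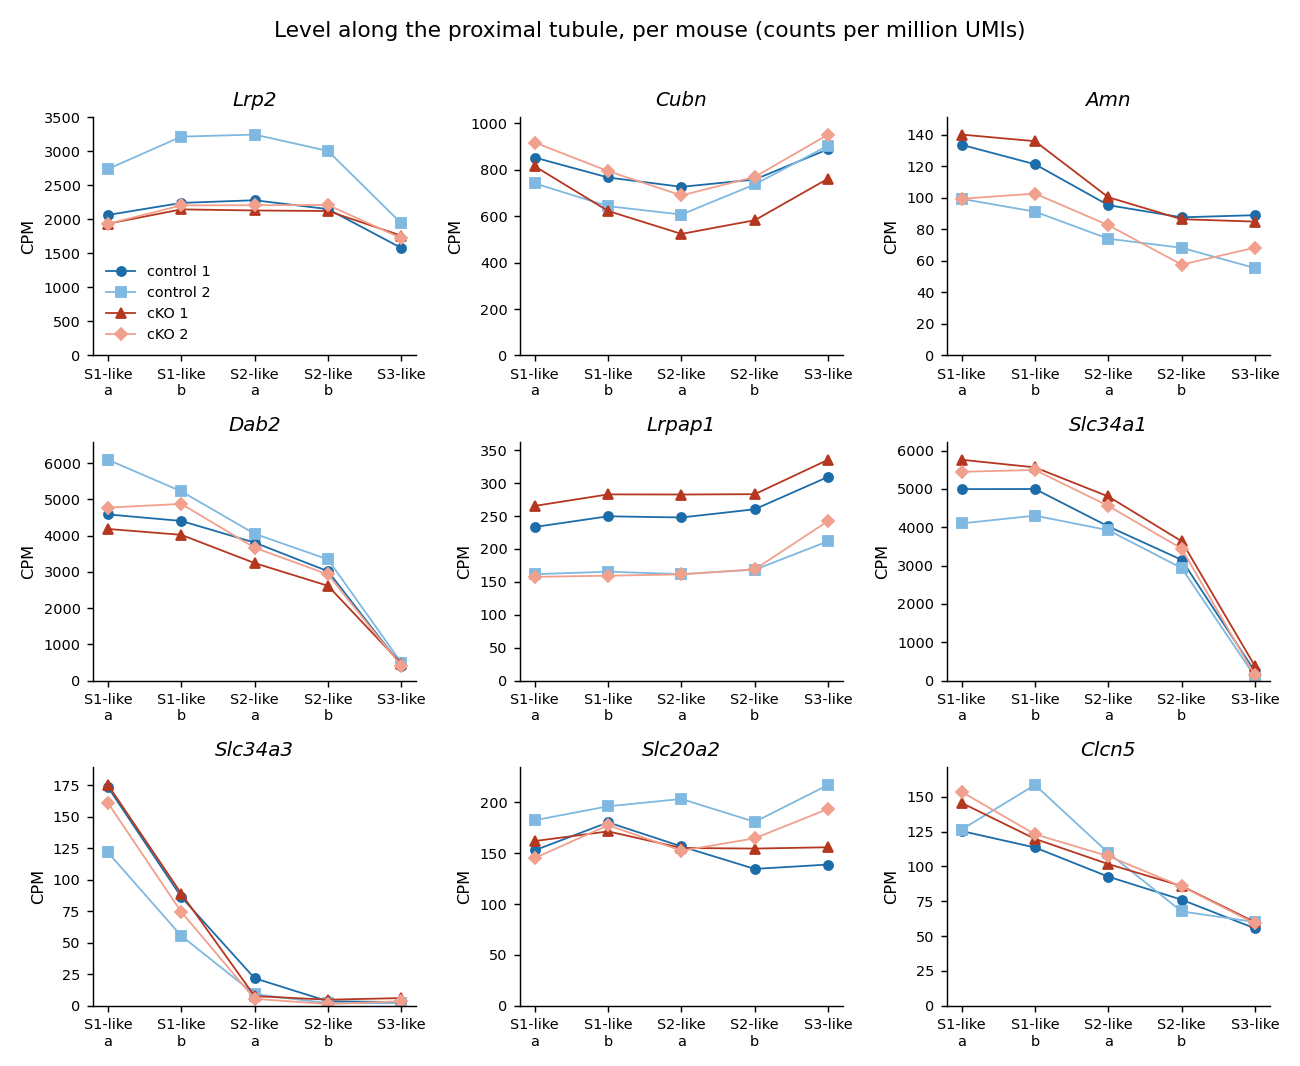
Levels of the 9 genes in the 5 clusters of proximal tubule nuclei, in CPM on a linear axis from 0, with a line for each of the 4 mice and clusters ordered by S1 markers over S3 markers. *Slc34a3* goes from a mean of 158 CPM in the outermost S1-like cluster to 11.1 CPM in the next-but-one, *Dab2* and *Slc34a1* drop at the S3-like cluster, and *Lrp2*, *Cubn* and *Slc20a2* stay high throughout.

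Counted over all 9 genes, 6 were higher in S1-like than in S3-like nuclei with no overlap between the 4 mice and 0 were higher in S3-like nuclei in that way. Of the 16362 genes with at least 10 UMIs in these nuclei, 14.5% were higher in S1-like and 19.2% in S3-like nuclei without overlap. The median of the mean log2 ratios was 0.57 over the 9 genes and -0.04 over the 16362. The 6 were *Lrp2*, *Amn*, *Dab2*, *Slc34a1*, *Slc34a3* and *Clcn5*.

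The 5 clusters gave a finer order, set by the log2 ratio of summed S1 markers to summed S3 markers, which was 4.02, 2.27, -0.75, -3.78 and -6.00 from the first to the last. Mean levels of *Slc34a3* were 158, 76.3, 11.1, 2.96 and 3.73 CPM in this order, so it declined within the S1-like nuclei themselves, from 174, 122, 175 and 161 CPM in the first cluster to 86.4, 55.5, 89.0 and 74.5 CPM in the next. Those ranges did not overlap. *Slc34a1* had mean levels of 5076, 5090.0, 4327, 3292 and 214 CPM and *Dab2* of 4909, 4631, 3692, 2977 and 449 CPM, so both held through the S1-like clusters, were lower by the last S2-like cluster and dropped at the S3-like cluster. *Lrp2* peaked in the middle clusters, with means of 2167, 2449, 2463, 2370.0 and 1749 CPM. *Cubn* was lowest in the middle cluster, with means of 831, 706, 636, 712 and 876 CPM.

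Other genes of these pathways were listed in 4 lists of 56 genes in all. Of 25 endocytic adaptor and trafficking genes, 14 were higher in S1-like nuclei without overlap and 1 in S3-like nuclei, with a median log2 ratio of 0.48. The 4 with most UMIs were *Myo6*, a motor that carries early endocytic vesicles (log2 ratio -0.15 ± 0.06), the lysosomal membrane genes *Lamp2* (0.67 ± 0.05) and *Lamp1* (0.60 ± 0.14), and *Lgmn*, a lysosomal protease (2.15 ± 0.31). *Lgmn* stood at 411, 455, 442 and 329 CPM in S1-like and at 103, 67.1, 105 and 67.2 CPM in S3-like nuclei, a wider drop than that of *Lrp2*.

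Of 17 genes for phosphate transport and its regulators, 4 were higher in S1-like and 5 in S3-like nuclei without overlap, with a median of -0.22. *Pdzk1*, a scaffold that binds NaPi-IIa, had a ratio of -0.07 ± 0.11. *Slc17a3* and *Slc17a1*, of the family of organic anion transporters first named for phosphate, had ratios of -0.72 ± 0.27 and -0.22 ± 0.21. *Xpr1*, which exports phosphate from cells, was higher in S1-like nuclei at 522, 448, 553 and 519 CPM against 222, 243, 223 and 248 CPM in S3-like nuclei (1.09 ± 0.19).

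Of 7 genes for vitamin uptake and vitamin D metabolism, 4 were higher in S1-like nuclei and 0 in S3-like nuclei without overlap, with a median of 0.99. The 4 with most UMIs were *Tcn2*, the carrier of vitamin B12 (1.44 ± 0.26), the folate receptor gene *Folr1* (0.35 ± 0.10), the vitamin D receptor gene *Vdr* (0.28 ± 0.23) and its partner *Rxra* (0.99 ± 0.19). Of these, *Folr1* and *Vdr* overlapped between S1-like and S3-like nuclei. Of 7 transcription factor genes, 2 were higher in S1-like and 1 in S3-like nuclei, with a median of -0.17. *Maf* stood at 892, 549.5, 816 and 1019 CPM in S1-like and 85.6, 63.4, 98.2 and 100.3 CPM in S3-like nuclei (3.08 ± 0.17), *Ppara* was higher in S1-like nuclei (1.06 ± 0.32), and *Hnf4g* (-0.82 ± 0.31) and *Hnf4a* (-0.17 ± 0.07) were lower there in 4 of 4 mice.

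*Slc34a1*, *Dab2* and *Slc34a3* had the largest ratios of S1-like to S3-like levels of the 9 genes. Their promoters and that of *Lrp2* are shown, each as the 250 bases before a listed transcript start (GRCm38.p6). They are written 5′ to 3′ on the strand of the gene. Those of *Slc34a1* and *Slc34a3* reach into the annotated genes, whose outer ends are at 55399622 and 25234270. The downstream promoter of *Dab2* lies inside its gene. The table held promoters for 8 of the 9 genes, all but *Slc20a2*, and 10 promoters in all. A core of the HNF4 motif, CAAAGTCC, was searched on both strands. It is in 1.2% of 32851 promoters of this length and in 0 of the 10, so the bases are all printed in lower case. The promoter of *Slc34a1* is at chr13:55399398-55399647 on the plus strand, with 46.4% of its bases G or C. *Dab2* has a pair of promoters on the plus strand, chr15:6299539-6299788 (36.8% G or C) and chr15:6386498-6386747 (60.0%). Those of *Slc34a3* (chr2:25234235-25234484, 56.4%) and *Lrp2* (chr2:69586030-69586279, 66.4%) are on the minus strand. These are descriptions of the letters only.
Slc34a1: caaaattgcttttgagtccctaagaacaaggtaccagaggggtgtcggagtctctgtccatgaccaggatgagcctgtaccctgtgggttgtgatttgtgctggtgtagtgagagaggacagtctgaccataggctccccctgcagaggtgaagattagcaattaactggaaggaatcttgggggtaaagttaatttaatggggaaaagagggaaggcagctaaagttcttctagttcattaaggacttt
Dab2, upstream promoter: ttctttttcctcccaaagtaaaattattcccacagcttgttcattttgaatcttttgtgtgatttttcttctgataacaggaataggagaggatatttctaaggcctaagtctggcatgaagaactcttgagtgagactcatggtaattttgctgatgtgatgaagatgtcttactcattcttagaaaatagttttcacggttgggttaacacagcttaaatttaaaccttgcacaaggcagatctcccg
Dab2, downstream promoter: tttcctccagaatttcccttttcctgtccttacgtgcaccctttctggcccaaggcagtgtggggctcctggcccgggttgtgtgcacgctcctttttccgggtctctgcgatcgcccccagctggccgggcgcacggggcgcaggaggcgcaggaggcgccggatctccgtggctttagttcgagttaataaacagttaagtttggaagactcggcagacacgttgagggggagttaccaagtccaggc
Slc34a3: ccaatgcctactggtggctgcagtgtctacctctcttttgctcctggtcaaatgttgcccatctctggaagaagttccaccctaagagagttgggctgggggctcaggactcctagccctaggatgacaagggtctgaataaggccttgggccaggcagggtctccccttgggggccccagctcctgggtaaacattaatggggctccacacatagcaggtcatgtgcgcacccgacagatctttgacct
Lrp2: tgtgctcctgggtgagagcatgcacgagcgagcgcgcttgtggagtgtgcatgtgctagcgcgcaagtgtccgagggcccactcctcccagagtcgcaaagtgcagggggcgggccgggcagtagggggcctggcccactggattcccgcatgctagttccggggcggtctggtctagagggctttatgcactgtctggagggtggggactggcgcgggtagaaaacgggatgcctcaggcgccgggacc

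The genes whose levels over the 15 classes were most like those of 4 of the members were listed by Pearson r of log2(CPM + 10), over 14577 genes. The points share libraries and free RNA, so r is a description. For *Lrp2* they were *Dao* (r = 0.997), *Keg1* (0.993) and *Akr1c21* (0.991), and *Cubn* came close at 0.987. For *Slc34a1* they were *Enpp6* (0.977), *G6pc* (0.974) and *Slc22a8* (0.969), and for *Dab2* they were *Rhobtb1* (0.953), *Gm16311* (0.919) and *Acmsd* (0.917). For *Slc34a3* they were *Ugt2b34* (0.955), *Car3* (0.941) and *1700007F19Rik* (0.933). Of these, *Car3* had means of 65.5, 6.59 and 3.34 CPM in S1-like, S2-like and S3-like nuclei, also highest in S1-like nuclei by far, like *Slc34a3*. *Clcn5* was unlike *Lrp2*, with r of -0.18.

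Outside the proximal tubule, 12 classes were compared. TL stands for the thin limb, TAL for the thick ascending limb, DCT for the distal convoluted tubule and CNT for the connecting tubule. The others were principal cells (PC), type A and type B intercalated cells (ICA and ICB), deep medullary epithelium of the pelvis (DMEP), podocytes (Podo), endothelial (EC), interstitial (Int) and immune (Imm) nuclei. Free RNA puts proximal tubule transcripts into all of them. The level it would give was taken from barcodes with under 100 UMIs, scaled in each class and mouse by the 9 proximal tubule markers counted there. A class is called above free RNA when the lower end of the 95% exact Poisson interval of its count exceeds that level in 4 of 4 mice.

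*Slc34a1* and *Slc34a3* were above free RNA in 0 of 12 classes, and *Amn* in 0. In TAL nuclei *Slc34a1* was at 0.565 to 0.680 times the free RNA level in the 4 mice. *Lrp2* was above it in 1 class, CNT, at 533, 299.7, 457 and 477 CPM, and so was *Cubn*. Of the nuclei in the CNT cluster, 17.4% were called doublets, which are droplets with more than 1 nucleus. With called doublets left out, *Lrp2* in CNT nuclei stood at 145, 60.4, 218 and 64.4 CPM and was above free RNA in 0 of 12 classes, as was *Cubn*. The 5 genes that mark uptake at the brush border are *Lrp2*, *Cubn*, *Amn*, *Slc34a1* and *Slc34a3*. With called doublets left out, they were thus above free RNA in 4 of 4 mice in 0 of 12 classes. A class may still be above it in fewer mice. The free RNA level can also be set too high, since *Slc34a1* in TAL nuclei lay below it in each mouse. A gene that is not above it is thus not shown to be absent from a class.

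*Dab2* was above free RNA in 6 of 12 classes: CNT, PC, ICA, ICB, Podo and EC. Without called doublets it remained so in 3, ICA, ICB and Podo. In ICA nuclei it stood at 651, 493, 477 and 624 CPM and in ICB nuclei at 507, 375, 546 and 474 CPM, where free RNA would give at most 260.1 and 142 CPM. These levels overlapped with those of S3-like nuclei (log2 ratio of ICA to S3-like levels 0.31 ± 0.35). A second background, the transcripts of proximal tubule nuclei of the same mouse in place of free RNA, was chosen after the data were seen, and against it *Dab2* was above background in 1 class, ICB.

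The ratio of *Dab2* to *Slc34a1* UMIs is given as a description. Without called doublets it was 0.239, 0.271, 0.283 and 0.427 in free RNA, 0.155, 0.272, 0.143 and 0.281 in TAL nuclei and 0.896, 1.32, 0.729 and 0.882 in S1-like nuclei. It was 1.86, 4.35, 0.873 and 6.83 in ICA and 2.02, 5.43, 1.72 and 3.15 in ICB nuclei, higher than in S1-like nuclei in 4 of 4 mice, though ICA in cKO mouse 1 was close. Podocytes, with 112 nuclei before doublets were left out, had 396, 247, 784 and 838 CPM of *Dab2* and ratios of 0.625, 2.60, 0.887 and 1.36, below S1-like nuclei in control mouse 1. The ratio was higher than in free RNA in 4 of 4 mice not in these classes alone but also in TL, CNT, PC, EC and Int nuclei. In S3-like nuclei it was 1.76, 4.85, 1.29 and 3.26, and *Dab2* was higher there than in TAL nuclei by a log2 ratio of 3.04 ± 0.47. Where the *Dab2* UMIs of the other classes came from was not tested.

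*Clcn5* had its highest levels outside the proximal tubule. It stood at 296, 471, 483 and 433 CPM in ICA nuclei and at 363, 352, 439.5 and 392 CPM in ICB nuclei, against 119, 146, 130 and 134 CPM in S1-like nuclei. Intercalated cells were above S1-like nuclei in 4 of 4 mice without overlap, by a log2 ratio of 1.58 ± 0.24 for ICA and 1.48 ± 0.20 for ICB, and did not differ between themselves beyond the spread (0.10 ± 0.29). S1-like and TAL nuclei, next in the order, were alike (120, 154, 129 and 123 CPM in TAL, log2 ratio 0.01 ± 0.08).

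*Clcn5* was above free RNA in 8 of 12 classes, TL, TAL, DCT, CNT, PC, ICA, ICB and EC, with or without called doublets, at 35.0 to 69.1 times the free RNA level in ICB nuclei. Against the background from proximal tubule nuclei it was above in the same 8 classes, and in 7, without EC, when called doublets were also left out. Between 37.8 and 55.2% of ICA nuclei and 51.2 and 63.6% of ICB nuclei held a *Clcn5* UMI in the 4 mice, beside 25.0 to 32.5% of S1-like and 7.57 to 9.44% of endothelial nuclei. Depths differed, with median UMIs of 2737.5 to 4162.5 in ICB and 1437 to 1549.5 in endothelial nuclei. With every nucleus thinned to 1000 UMIs the shares were 21.1 to 29.6% of ICA, 15.6 to 29.9% of ICB, 10.4 to 15.2% of S1-like and 3.15 to 5.84% of endothelial nuclei, and in control mouse 2 ICB (15.6%, of 32 nuclei) and S1-like nuclei (15.2%) were nearly equal. The S3-like level of *Clcn5* came in 12th of the 15 classes and overlapped with those of EC and PC.

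*Slc20a2* was above free RNA in 8 of 12 classes, TL, TAL, DCT, CNT, PC, ICB, DMEP and EC, with or without called doublets. Against the background from proximal tubule nuclei CNT, ICB and EC were not, which leaves 5 classes. The 3 proximal tubule segments came first in its order by mean, and the S2-like and S3-like values, but not the S1-like values, overlapped with those of TL nuclei, 95.6, 155, 128 and 72.7 CPM. S1-like nuclei were above TAL nuclei (80.7, 86.8, 71.1 and 64.0 CPM) in 4 of 4 mice without overlap, by a log2 ratio of 1.10 ± 0.12.

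*Lrpap1* was above free RNA in 4 classes, TAL, PC, DMEP and EC, and in 6 without called doublets, with TL and CNT added. Against the background from proximal tubule nuclei it was above in 8 classes, and in 9 when called doublets were also left out. Its order over the 15 classes was loose, since each class overlapped with the next, from S3-like nuclei at a mean of 275 CPM to DCT nuclei at 86.3 CPM. *Lrp2*, by contrast, separated into S1-like and S2-like nuclei, then S3-like nuclei at a mean of 1749 CPM, then all others from CNT at 442 CPM down to TAL at 106 CPM, each of which overlapped with the next. *Cubn* had the same break below the proximal tubule, *Slc34a1* had it below S2-like nuclei and *Slc34a3* below S1-like nuclei. *Amn* had a break below S1-like nuclei, and its S3-like values overlapped with the few immune nuclei (45.4, 58.2, 121 and 66.8 CPM). *Dab2* had breaks below S1-like, S2-like and TL nuclei, and between those its classes overlapped each with the next.

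**Figure D2:**
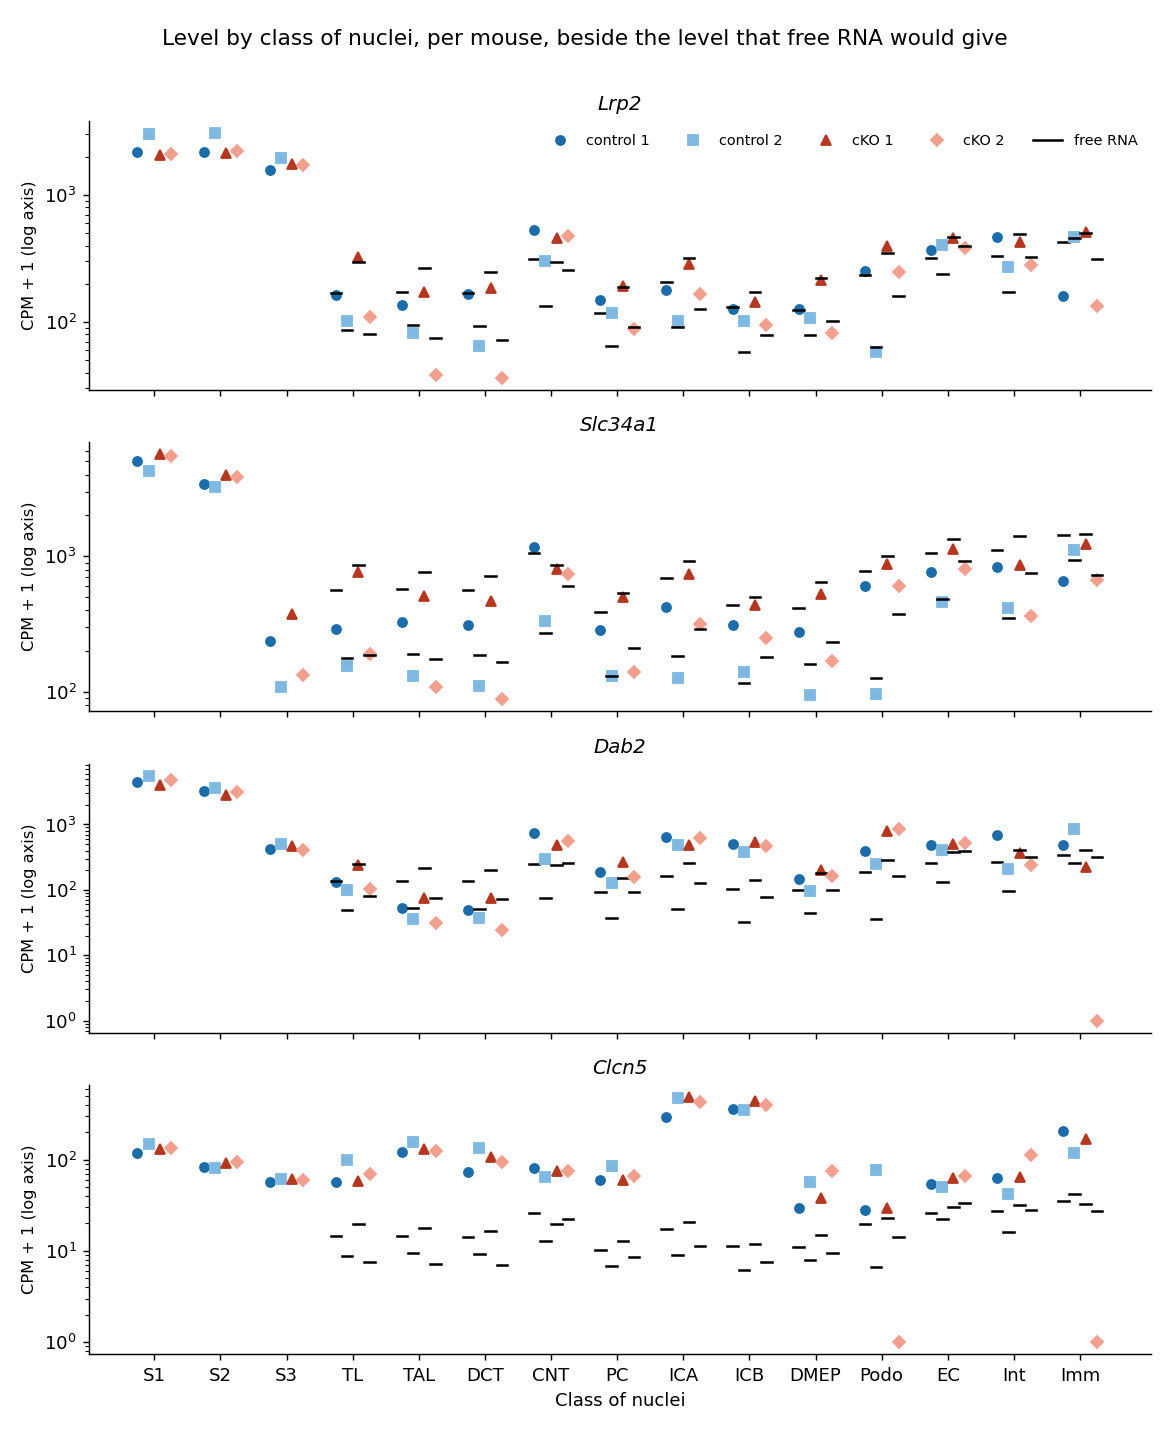
Levels of *Lrp2*, *Slc34a1*, *Dab2* and *Clcn5* in the 15 classes of nuclei, in CPM plus 1 on a log axis, with a point for each of the 4 mice and black bars at the level that free RNA would give in each mouse outside the proximal tubule. *Slc34a1* lies near or below the bars in all 12 other classes and at its lowest mean in S3-like nuclei, and *Clcn5* is highest in ICA and ICB.

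Of the nuclei of the 4 mice, 6.45, 3.44, 9.98 and 3.03% were set aside from all classes as damaged, dividing or mixed. The larger of 2 damaged clusters, 864 nuclei with high mitochondrial shares, had more *Lrpap1* and *Amn* and less *Dab2* than proximal tubule nuclei, as free RNA did. Its means were 743 CPM of *Lrpap1*, 256 CPM of *Amn* and 527 CPM of *Dab2*, beside 230, 87.8 and 2889 CPM in proximal tubule nuclei. Of its nuclei, 254, 28, 568 and 14 came from the 4 mice. In mouse 2 of each genotype its values rest on few UMIs, 19 and 19 of *Lrpap1*, 9 and 6 of *Amn* and 22 and 15 of *Dab2*.

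Control and cKO mice were compared to ask whether loss of *Tfap2a* in the ureteric lineage comes with other levels of the 9 genes in the proximal tubule, where the Cre is not active. UMIs were summed per mouse, so that mice and not nuclei are the replicates, and tested with the quasi-likelihood test of edgeR, two-sided, with Benjamini-Hochberg adjustment over all genes tested. With 2 mice a group, the p-values weigh each difference against a spread between mice that edgeR estimates in part from other genes. An exact permutation test could not go below p = 0.33.

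Over all proximal tubule nuclei, 0 of the 9 genes were called at an adjusted p under 0.05, and 0 had an unadjusted p under 0.05, by edgeR or by DESeq2. Of the 17724 genes tested, 1 was called (0.00564%), DESeq2 called 20, and 616 (3.48%) had an unadjusted p under 0.05. The one called was *Npas3*, named here after its value was seen, at 238, 175, 1.53 and 1.99 CPM (log2 fold change -6.90, adjusted p 0.0156 by edgeR, lower in both cKO mice than in both controls).

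*Slc34a1* had the largest fold change of the 9 genes over all proximal tubule nuclei. Its 3119, 2268, 3808 and 3441 CPM put both cKO mice above both control mice, and control mouse 2, which had the largest S3-like share, was lowest. By edgeR the log2 fold change of cKO over control mice was 0.40 (SE 0.23, 95% confidence interval -0.18 to 0.99), higher in 4 of 4 pairs of mice, with an unadjusted p of 0.141 and an adjusted p of 0.9997. Without control mouse 2 it was 0.19. Within S1-like nuclei it was 0.23 and within S2-like nuclei 0.18, in both higher in 4 of 4 pairs.

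*Lrp2* stood at 2036, 2631, 2035 and 2063 CPM over all proximal tubule nuclei. Control mouse 2 was high and the other 3 mice were close together, so the groups overlapped. The log2 fold change was -0.21 (95% confidence interval -0.70 to 0.28), and without control mouse 2 it was -0.017. *Clcn5* stood at 85.9, 87.8, 96.8 and 97.1 CPM, with both cKO mice above both control mice and a log2 fold change of 0.14 (95% confidence interval -0.23 to 0.50).

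*Dab2* at 2939, 2845, 2754 and 3017 CPM had groups that overlapped (log2 fold change -0.03). *Lrpap1*, at 265, 183, 291 and 182 CPM, and *Slc34a3*, at 40.8, 20.9, 41.4 and 33.2 CPM, varied more between mice of the same genotype than between genotypes. Log2 fold changes of the 9 genes ran from -0.21 to 0.40 with a median of 0.05, against a median of 0.01 over all genes, and 5 of 9 were positive.

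In S1-like nuclei 0 of 9 genes were called, beside 1 of 14347 genes tested (0.00697%). In S2-like nuclei 0 of 9 were called, beside 1 of 15570 (0.00642%), and in S3-like nuclei 0 of 9, beside 4 of 14653 (0.0273%). By edgeR 0 of the 9 had an unadjusted p under 0.05 in any of these segments, and by DESeq2 also 0, while over all genes 435, 470 and 432 did by edgeR. DESeq2 called 11, 16 and 14 genes of all in the 3 segments and 0 of the 9. *Npas3* was called in each segment, and in S3-like nuclei so were *Gm29536*, *Ptn* and *Nat8f6*, all named after their values were seen.

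The 4 largest log2 fold changes by segment had confidence intervals that include 0. In S1-like nuclei *Lrp2* was lower in both cKO mice (2065 and 2107 CPM against 2162 and 3030.0), with a log2 fold change of -0.35 (95% confidence interval -0.93 to 0.22) that was -0.082 without control mouse 2. *Slc34a3* in S3-like nuclei had a log2 fold change of 0.87 on 9 and 6 UMIs in control mice against 16 and 10 in cKO mice, with a confidence interval of -0.37 to 2.11, higher in 4 of 4 pairs. In S2-like nuclei it had the other sign, -0.78 (-2.01 to 0.45), on 57 and 12 UMIs against 39 and 15, with groups that overlapped. *Slc34a1* in S3-like nuclei had a log2 fold change of 0.53 (-0.79 to 1.84), also with overlap. The adjusted p-values of these 4 were at least 0.998 by edgeR.

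Groups did not overlap for 2 of 9 genes over all proximal tubule nuclei (*Slc34a1* and *Clcn5*), where 30.4% of all genes did not overlap in either direction. The count was 3 of 9 in S1-like nuclei (*Slc34a1*, *Lrp2* and *Slc20a2*, against 30.2% of all genes), 3 of 9 in S2-like nuclei (*Slc34a1*, *Clcn5* and *Dab2*, against 30.9%) and 1 of 9 in S3-like nuclei (*Slc34a3*, against 29.8%).

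Whether a difference between genotypes itself differed between S1-like and S3-like nuclei was tested as an interaction with the mouse as a term. By edgeR 0 of 9 genes were called and 0 had an unadjusted p under 0.05, beside 4 called (0.0244%) and 609 (3.72%) with an unadjusted p under 0.05 of 16362 genes. DESeq2 was not run on the interaction. The differences of log2 fold changes, S1-like minus S3-like, ran from -0.75 for *Slc34a3* to 0.14 for *Cubn*. The 4 genes called were *Pecr*, *Gm29536*, *Ppm1k* and *Irs2*, named after their values were seen.

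**Figure D3:**
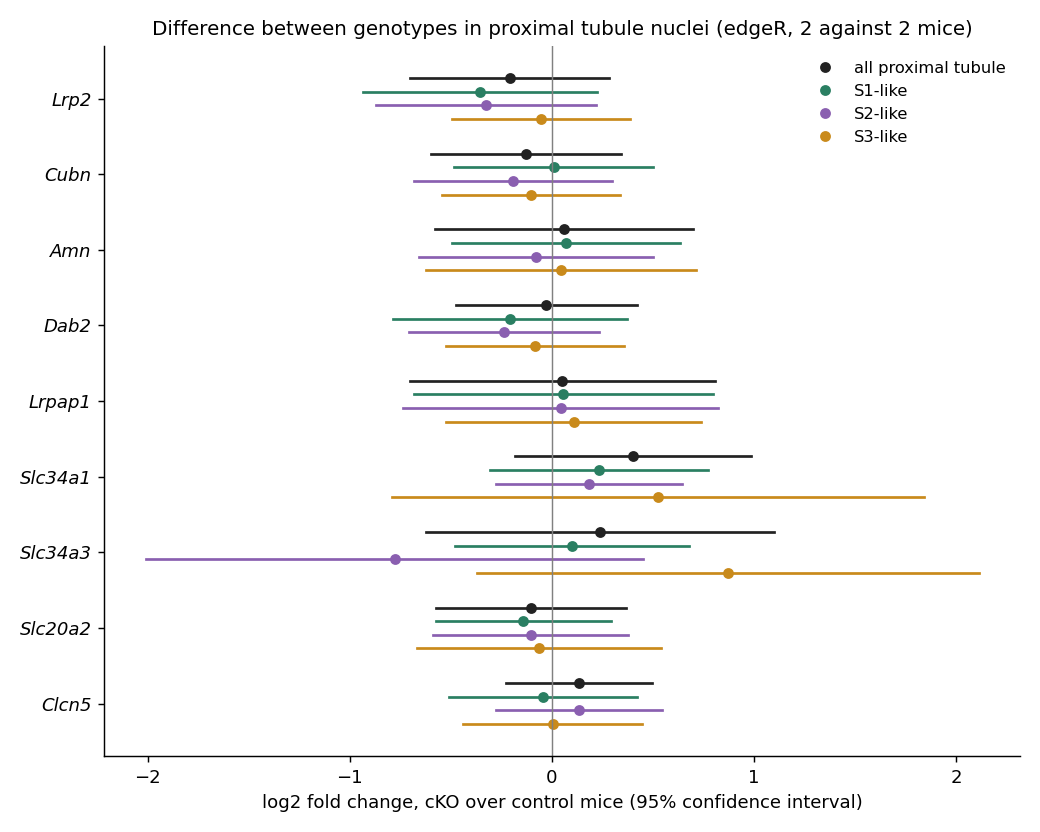
Log2 fold changes of the 9 genes, cKO over control mice, in all proximal tubule nuclei and in S1-like, S2-like and S3-like nuclei, with 95% confidence intervals from edgeR (2 against 2 mice). All 36 intervals include 0.

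In 9 classes outside the proximal tubule with at least 20 nuclei in each mouse, including type A and B intercalated cells as 1 class (IC), 76 tests of the 9 genes gave 0 calls by edgeR and 0 by DESeq2. The other 5 pairs, all of *Slc34a3*, had too few UMIs to test. By edgeR without a block 2 of the 76 had an unadjusted p under 0.05. By DESeq2 it was 1, a different test, in EC nuclei. Over all genes in these classes 3 of 105746 tests were called by edgeR, 11 by DESeq2, and 2.87% had an unadjusted p under 0.05. The share called was 0.0% in TL, DCT, CNT, PC, IC, DMEP and Int, 0.00677% in TAL and 0.0154% in EC, and 0.0% in ICA and in ICB when tested apart.

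The 2 were *Slc34a1* in DMEP nuclei, at 279, 94.7, 528 and 167 CPM (log2 fold change 0.97, unadjusted p 0.0437 and adjusted p 1.0 by edgeR, higher in 3 of 4 pairs), and *Lrpap1* in Int nuclei, on 37, 8, 42 and 13 UMIs (log2 fold change 1.24, unadjusted p 0.0367 and adjusted p 0.994 by edgeR, higher in 3 of 4 pairs). When ICA nuclei were tested apart, *Cubn*, on 9, 8, 15 and 17 UMIs, had both cKO mice above both control mice (log2 fold change 1.24, unadjusted p 0.0207 and adjusted p 0.999 by edgeR, higher in 4 of 4 pairs). It was the 1 of 8 genes tested there with an unadjusted p under 0.05 by edgeR, beside 0 by DESeq2 and 3.17% of all genes by edgeR. In *Slc34a1* and *Lrpap1*, mouse 1 of each genotype was higher than mouse 2, the order of the free RNA share, and *Slc34a1* in DMEP nuclei was below its free RNA level in each mouse. In the collecting duct, where the Cre is active, *Dab2* in PC nuclei stood at 185, 125, 265 and 155 CPM, and *Clcn5* in IC nuclei stood at 334, 437, 455 and 416 CPM. The groups overlapped in both, with log2 fold changes of 0.44 (95% confidence interval -0.28 to 1.17) and 0.15 (-0.58 to 0.87).

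The genes of the lists were compared in the same way, and the result of the transcription factor list is not given here. Of 25 endocytic genes and 7 vitamin genes 0 were called in proximal tubule nuclei by edgeR or DESeq2, and 0 had an unadjusted p under 0.05 by either tool. Of 17 phosphate genes 0 were called and 1 had an unadjusted p under 0.05 by either tool, *Slc34a2*, which is named after its values were seen. *Slc34a2*, which makes NaPi-IIb, stood at 1.79, 10.7, 0.804 and 1.21 CPM, with both cKO mice below both control mice and control mouse 2 highest (log2 fold change -2.59, unadjusted p 0.0297 and adjusted p 0.9997 by edgeR). Control mouse 2 alone held 77 of its 125 UMIs there. Of the 125, 101 were in S3-like nuclei, at 5.88, 23.3, 2.29 and 4.78 CPM, and control mouse 2 had the largest S3-like share. In S1-like, S2-like and S3-like nuclei these 3 lists also had 0 calls by either tool, with 1, 0 and 1 genes at an unadjusted p under 0.05 by edgeR and 1 in each by DESeq2, all in the phosphate list.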

How the data were processed

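The deposited files hold raw UMI counts per gene and barcode that the authors made with Cell Ranger 3.0.2 against mm10, for 4 libraries of kidney nuclei, 1 per mouse, with all 6794880 barcodes each. Whether introns were counted is not stated.

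Of the 10000 barcodes with most UMIs in each library, nuclei were kept if they had more than 500 and fewer than 4000 genes with less than 5% of UMIs mitochondrial, 27341 in all, with medians of 2585, 2645.5, 2506 and 2797 UMIs, which is too few to call a gene absent from a nucleus. Integration and clustering used Seurat 5.3.0 in R 4.3.3 (2000 variable genes, the 9 genes and list genes left out, 30 dimensions, resolution 0.5, 27 clusters). A class needed 3 markers at 2 times the other clusters with 10 CPM added, in at least 5% of nuclei. Clusters were set aside as damaged (over 2 times the median mitochondrial share and under 0.5 times the median UMIs), as mixed (over 50% called doublets) or as dividing. These naming thresholds, the doublet rate and the rules for setting aside were set after the clusters were seen. Doublets were scored with scrublet in scanpy 1.11.5. The nuclei with the highest scores were called, up to an expected share of 6.19, 4.34, 6.4 and 4.94% (479, 236, 512 and 305 nuclei). The threshold that scrublet sets itself would have called 378, 172, 279 and 229. Called doublets were left in except in a named alternative. Barcodes shared by library pairs, 7 to 18, were kept.

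UMIs were summed per mouse, and genes with 10 or more in total were compared by edgeR 4.0.16 (TMM, quasi-likelihood) in classes with at least 20 nuclei in every mouse, and again with DESeq2 1.42.0. Podocytes and immune nuclei had too few in 1 mouse. The tests were also tested on simulated data. Tables and figures were made with Python 3.11.15, pandas 2.3.3, numpy 2.4.6, scipy 1.17.1 and matplotlib 3.10.9. The promoter motif was chosen for factors known in the proximal tubule and searched on both strands.

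The 9 genes and the lists were chosen with earlier results of these data known. The genes named are the 9, *Tfap2a*, segment markers, of each list those called between genotypes and the 4 with most UMIs in proximal tubule nuclei, and the 3 most like each of *Lrp2*, *Slc34a1*, *Slc34a3* and *Dab2*. Any other gene was picked once its values had been seen.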

Additional observations from a re-analysis of the deposited data

How the results depend on the processing

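The processing choices were varied one at a time. For the genotype comparisons the alternatives were DESeq2, no TMM, edgeR filterByExpr, no count filter, the replicate number as a block, an adjusted p under 0.1, nuclei under 1% mitochondrial UMIs, called doublets left out, expected free RNA subtracted, clustering at resolution 0.8, the 9 genes and list genes kept among the variable genes, and each mouse left out in turn, where the lone mouse of a group is assumed to vary like the other group. The alternatives for the other classes of nuclei, and the background from proximal tubule nuclei, were chosen after seeing the data.

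Over all these settings 501 log2 fold changes of the 9 genes were recomputed in proximal tubule, S1-like, S2-like and S3-like nuclei, of which 46 had the other sign and 0 passed the threshold. Without 1 mouse it was 36 of 144 with the other sign, and in the other settings 10 of 357. Of 75 counts of the 9 genes called, in any class, 3 were above 0 and the highest was 3. The count for the interaction of genotype and segment was 0 without TMM, without called doublets and without each mouse.

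The 10 were small values. With nuclei under 1% mitochondrial UMIs, *Slc34a3* stood at -0.0235 in proximal tubule nuclei, *Cubn* at -0.046 in S1-like and *Amn* at 0.0191 in S2-like nuclei. That limit kept 567, 1536, 2657 and 3039 proximal tubule nuclei of 4040, 1939, 4373 and 3343, so control mouse 1 lost most of its nuclei. With free RNA subtracted, *Cubn* stood at -0.0025 in S1-like and *Lrpap1* at -0.0246 in S2-like nuclei. With the genes kept among the variable genes, *Lrpap1* and *Clcn5* stood at -0.0065 and 0.0681 in S1-like nuclei. *Clcn5* stood at 0.0058 with no filter and 0.105 at resolution 0.8 in S1-like nuclei, and at -0.0022 with filterByExpr in S3-like nuclei. The cause was not tested.

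Leaving out each mouse gave wider ranges of log2 fold change, given here for the genes whose sign turned. In proximal tubule nuclei they were -0.31 to 0.0275 for *Cubn*, -0.18 to 0.36 for *Amn*, -0.0926 to 0.0261 for *Dab2*, -0.34 to 0.36 for *Lrpap1*, -0.15 to 0.82 for *Slc34a3* and -0.30 to 0.12 for *Slc20a2*. In S1-like nuclei they were -0.14 to 0.14 for *Cubn*, -0.16 to 0.32 for *Amn*, -0.39 to 0.39 for *Lrpap1*, -0.16 to 0.46 for *Slc34a3* and -0.18 to 0.12 for *Clcn5*. In S2-like nuclei they were -0.34 to 0.12 for *Amn*, -0.41 to 0.39 for *Lrpap1* and -0.30 to 0.10 for *Slc20a2*.

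In S3-like nuclei, with 1 mouse left out, the ranges were -0.19 to 0.0975 for *Lrp2*, -0.27 to 0.0343 for *Cubn*, -0.26 to 0.43 for *Amn*, -0.21 to 0.0457 for *Dab2*, -0.16 to 0.41 for *Lrpap1*, -0.43 to 1.22 for *Slc34a1*, -0.35 to 0.29 for *Slc20a2* and -0.0509 to 0.0575 for *Clcn5*. Fewer mice give these settings less precision. Of those that held their sign, *Slc34a1* in proximal tubule nuclei ran from 0.19 (without control mouse 2) to 0.66 and *Lrp2* from -0.38 to -0.017 (without control mouse 2), and *Lrp2* in S1-like nuclei from -0.57 to -0.082 (without control mouse 2).

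Counts of all genes called moved more. In proximal tubule nuclei, where edgeR called 1, it was 20 by DESeq2, 5 with no filter, 0 with free RNA subtracted and 0 to 1 without 1 mouse. In S1-like nuclei (1 called) it was 11 by DESeq2, 127 with no filter, 0 with free RNA subtracted, and without 1 mouse from 0 (control mouse 1 left out) to 20 (cKO mouse 1 left out). In S2-like nuclei (1 called) it was 16 by DESeq2, 0 with filterByExpr, 168 with no filter, 0 with the genes kept among the variable genes, and without 1 mouse from 0 (control mouse 1 left out) to 28 (cKO mouse 1 left out). In S3-like nuclei (4 called) it was 14 by DESeq2, 1 with filterByExpr, 0 with free RNA subtracted, and 4 to 9 without 1 mouse (9 without control mouse 1). The cause was not tested.

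With the replicate number as a block (replicate block), 3, 50, 13 and 93 genes were called in proximal tubule, S1-like, S2-like and S3-like nuclei. In other classes 2 tests of the 9 genes were then called, *Slc34a1* in TL and in EC nuclei. *Slc34a1* was above free RNA in 0 of 12 classes, TL and EC included. Mice of the same number share only a number in the labels, and this pairing is not known to mark a batch. Deviations from the genotype mean correlated between mice of the same number by 0.555, 0.468, 0.483 and 0.509 in the same 4 sets of nuclei. In other classes 0 to 3 tests of the 9 genes were called without 1 mouse: 1 without control mouse 1 (*Slc34a1* in DMEP) and 3 without cKO mouse 1 (*Lrp2* in TAL, *Lrp2* and *Amn* in DCT). The cause was not tested.

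The log2 ratios of S1-like to S3-like levels had the same sign, except that of *Slc20a2* without control mouse 2 (0.051) and without cKO mouse 2 (0.062), under the pseudocount of 1 CPM, the mitochondrial limit, doublets left out, free RNA subtracted, both other clusterings and each mouse left out. With free RNA subtracted they were 0.74 for *Amn*, 3.79 for *Dab2*, 9.09 for *Slc34a1*, 3.64 for *Slc34a3* and 1.20 for *Clcn5*. The free RNA share subtracted was that of thick ascending limb and distal convoluted tubule nuclei. For *Slc34a1* in S3-like nuclei the amount to subtract exceeded the count in each mouse, so no count was left. The share used was thus too high for this gene there. Its ratio then depends on the 10 CPM added and is no estimate of the ratio without free RNA. With 1 CPM added in place of 10 they were 4.57 for *Slc34a3* and 1.15 for *Clcn5*. *Slc34a3* was at 3.42 at resolution 0.8 and at 3.48 with the genes kept among the variable genes.

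Classes above free RNA numbered, with called doublets left out, 0 for *Lrp2*, 0 for *Cubn* and 3 for *Dab2*, and with proximal tubule nuclei as the background 0 for *Lrp2*, 0 for *Cubn*, 1 for *Dab2*, 8 for *Lrpap1* and 5 for *Slc20a2*. With barcodes under 50 UMIs as free RNA the counts were those of the report for all 9 genes. *Slc34a3* had the fewest UMIs of the 9 genes in proximal tubule nuclei, 1627, and outside S1-like nuclei its values rest on few.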
